A study of Mus musculus with 8 samples.

Results

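The rod phototransduction activation genes are 9 genes that encode the parts of the cascade between photon capture and the electrical response of the rod photoreceptor. Members were taken by gene symbol: every probe set of a mouse Affymetrix expression array whose only platform symbol is Gnat1, Gnb1, Gngt1, Pde6a, Pde6b, Pde6g, Cnga1, Cngb1 or Slc24a1 was included. This gave 15 of the 45037 probe sets, for 9 of the 18193 genes with such a probe set. A probe set is a group of short oligonucleotides whose combined fluorescence reports 1 transcript. The comparison was of 4 injected retinas, labelled only as injected and as a compound-based treatment, with 4 control retinas, dissected fresh and labelled as time 0 d. Total RNA of each sample went on 1 array. The labels give no strain, age, genotype, compound, dose, route or interval, and they name no sham injection, so injection, compound and handling cannot be told apart here. All 8 sample names carry the word ENZO, which the labels do not explain. Whether the retinas of either group come from different animals is not stated, so p-values reflect only the spread of these samples, possibly a technical one.

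In rods, photon capture leads to activation of transducin, a G protein made of an alpha subunit (Gnat1), a beta subunit (Gnb1) and a gamma subunit (Gngt1). The released alpha subunit relieves the catalytic pair of phosphodiesterase 6 (Pde6a and Pde6b) of its inhibitory subunit (Pde6g), and cyclic GMP is broken down. Loss of cyclic GMP closes the cation channel of the outer segment (Cnga1 and Cngb1), while the exchanger Slc24a1 goes on exporting calcium. Gnb1 is also made by many other cell types. The other 8 are used mainly by rods in the retina. In a whole retina, fewer rods and less RNA per rod cannot be told apart.

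No member differed between the groups at the threshold. Of the 14 member probe sets bright enough to be tested, 0 had an adjusted p under 0.05 (limma with Benjamini-Hochberg adjustment over all 27022 tested probe sets), and their adjusted p ran from 0.628 to 0.992. Across the whole array percent called was 0 as well, with a smallest adjusted p of 0.102. With array weights limma called 7 probe sets higher and 1 lower over the whole array, and 0 of them were members. At an unadjusted p under 0.05, 3 member probe sets were lower in injected retina and 0 were higher. They were 1 each of Pde6b, Pde6g and Gnb1. Of all tested probe sets 3.33% were lower and 3.66% higher by that rule. The difference was negative at 11 of the 14, against 52.4% of all tested probe sets.

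The members did not share 1 pattern. The signal of the catalytic subunit Pde6b and of the inhibitory subunit Pde6g lay below the control mean in all 4 injected retinas. At the brightest probe set, Gnat1, Gnb1, Cnga1, Gngt1 and Cngb1 lay below the control mean in 3 of 4, and Slc24a1 in 2 of 4. Values of Gngt1, Cngb1 and Slc24a1 differed by less than their standard error, and Pde6a was above its control mean in all 4 injected retinas. Read at the probe set with the highest mean signal per gene, 7 of 9 members had a negative difference, against 51.5% of all 12886 tested genes. Their median difference was -0.29 log2 units, against -0.011 for all tested genes. Without injected replicate 2 that median was -0.12, and without injected replicate 3 it was -0.13. Centred on array medians it was -0.50, where all tested probe sets shifted to -0.15.

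**Figure D1:**
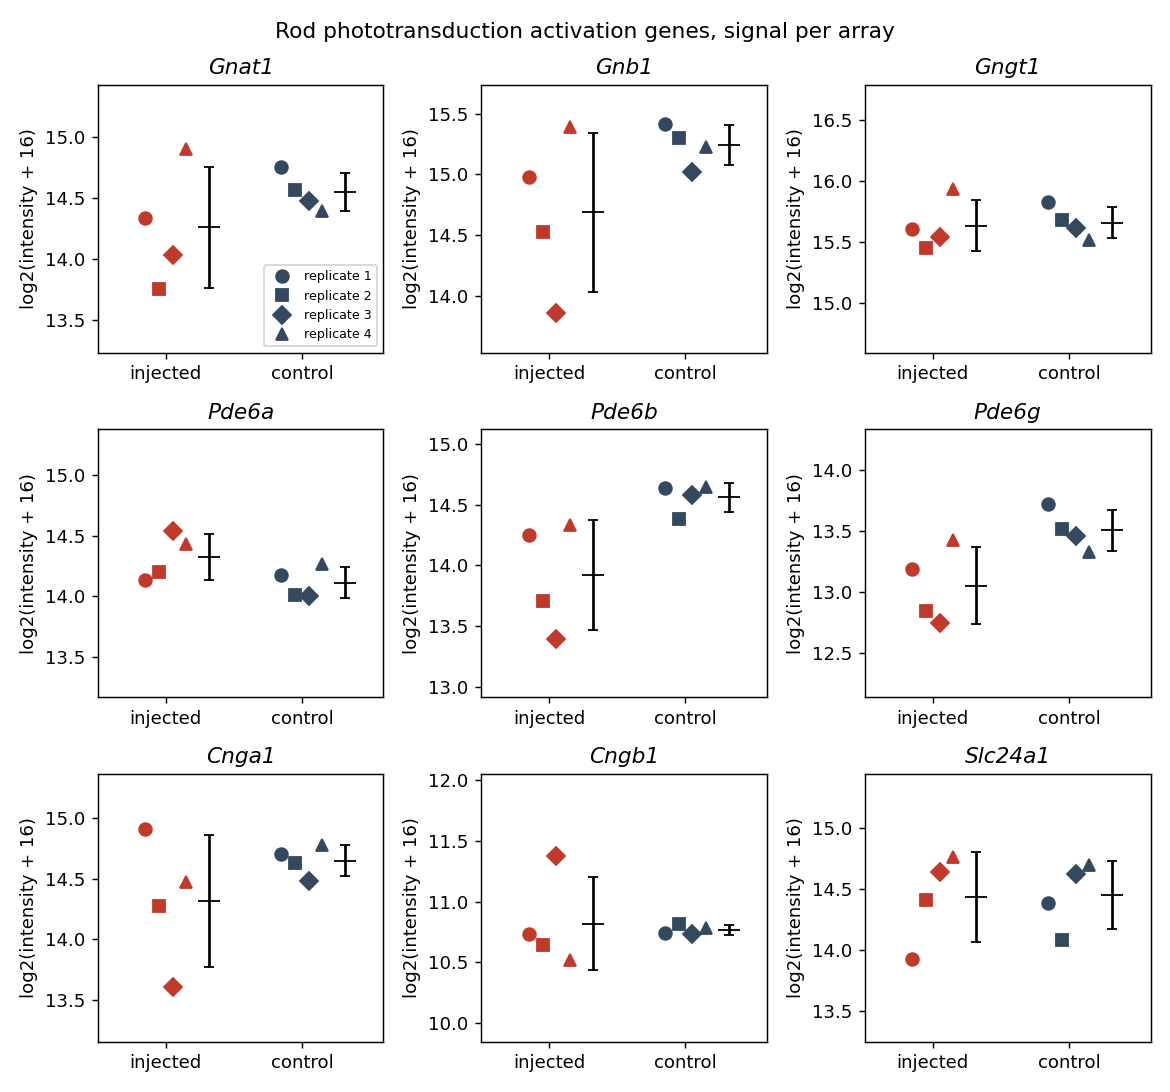
Signal of the 9 genes on each array, as log2(intensity + 16) after quantile normalization, at the probe set with the highest mean per gene. Symbols stand for replicates 1 to 4, and black marks give the mean and SD of the 4 injected or 4 control retinas. Every panel spans the same number of log2 units. The Pde6b values of the injected retinas, 13.39 to 14.33, all lie below those of the controls, 14.38 to 14.64, and the other genes overlap.

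Windows from the RefSeq promoter table were examined for 6 members, and the stretch of 250 bases before the gene's start is shown for 4. Promoters of the other members were not examined here. Cnga1, Cngb1 and Gngt1 hold a match to TAATCC, the core that the photoreceptor homeodomain factor Crx binds. Pde6b holds a match to TGCTGA, part of the element bound by Nrl, the leucine zipper factor that directs rod gene expression. These are shown because Nrl and Crx were measured on the same arrays and are described beside the members below. The windows are, on build GRCm38.p6, chr5:108388123-108388372 (plus strand) for Pde6b, chr6:3993758-3994007 (plus strand) for Gngt1, chr5:72642753-72643002 (minus strand) for Cnga1 and chr8:95306586-95306835 (minus strand) for Cngb1. Capitals mark the matches to TAATCC or TGCTGA on either strand (GGATTA or TCAGCA on the other), and each sequence runs 5′ to 3′ on the gene's strand.
Pde6b: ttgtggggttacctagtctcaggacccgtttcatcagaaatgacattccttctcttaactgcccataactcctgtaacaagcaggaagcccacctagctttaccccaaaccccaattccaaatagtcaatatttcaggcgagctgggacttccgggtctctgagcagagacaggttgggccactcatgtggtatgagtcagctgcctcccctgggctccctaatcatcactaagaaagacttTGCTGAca
Gngt1: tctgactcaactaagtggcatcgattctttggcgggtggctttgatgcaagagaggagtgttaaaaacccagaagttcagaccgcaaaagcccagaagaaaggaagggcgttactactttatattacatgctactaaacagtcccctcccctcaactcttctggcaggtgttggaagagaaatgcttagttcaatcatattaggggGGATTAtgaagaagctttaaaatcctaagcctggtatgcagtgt
Cnga1: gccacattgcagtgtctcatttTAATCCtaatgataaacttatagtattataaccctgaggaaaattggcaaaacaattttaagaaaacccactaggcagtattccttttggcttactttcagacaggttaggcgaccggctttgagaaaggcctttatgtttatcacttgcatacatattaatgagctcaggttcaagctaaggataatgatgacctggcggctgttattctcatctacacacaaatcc
Cngb1: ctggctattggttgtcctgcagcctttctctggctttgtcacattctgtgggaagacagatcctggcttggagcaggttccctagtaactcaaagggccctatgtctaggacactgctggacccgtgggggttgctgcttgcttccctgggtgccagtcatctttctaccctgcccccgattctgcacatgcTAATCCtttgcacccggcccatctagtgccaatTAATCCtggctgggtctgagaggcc
The match in Pde6b begins 8 bases before the gene's start and that in Gngt1 44 bases before it. Cngb1 has 2 matches, which begin 58 and 25 bases before the start, and Cnga1 has 1, at 228. The windows of Gnb1 and Slc24a1 hold neither motif. Over all 32851 windows of this length in the table, 6.25% hold TAATCC and 16.1% hold TGCTGA on either strand, and none of the marked matches overlap. A match describes letters and not a bound site.

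Transducin was read at 8 probe sets. The alpha subunit Gnat1 (1460212_at) had log2 values of 14.34, 13.75, 14.04 and 14.91 in injected replicates 1 to 4, against 14.76, 14.56, 14.47 and 14.39 in control replicates 1 to 4. Injected replicates 1, 2 and 3 lay below every control and replicate 4 above every control, so the groups overlapped in an unusual way. The difference was -0.29 ± 0.26 (SE; limma adjusted p = 0.779), with a 95% interval of -0.87 to 0.29. It was -0.51 without injected replicate 4 and -0.12 without injected replicate 2.

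The beta subunit Gnb1 lay low on the same arrays. Its brightest probe set (1454696_at) had 14.98, 14.53, 13.86 and 15.39 in injected replicates 1 to 4, against 15.41, 15.30, 15.02 and 15.23 in control replicates 1 to 4. The difference was -0.55 ± 0.31 (SE; limma adjusted p = 0.738). Again injected replicates 1 to 3 were below all controls, and replicate 4 stood inside the control range. A second probe set (1417432_a_at) had 12.89, 12.19, 11.20 and 13.76 in injected retinas, against 13.58, 13.45, 13.74 and 13.62 in controls. Its difference was -1.09 ± 0.46 (unadjusted p = 0.042; limma adjusted p = 0.712), the widest of any member, and the injected SD was 1.08 against a control SD of 0.12. Without injected replicate 3 it was -0.65. The third probe set (1425908_at) did not pass the filter on low signal, with values of 6.34 to 8.97 in injected and 6.56 to 8.38 in control retinas.

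The gamma subunit Gngt1 differed little at any of its 4 probe sets. At the brightest (1425167_a_at) it had 15.61, 15.45, 15.54 and 15.93 in injected replicates 1 to 4, against 15.83, 15.68, 15.62 and 15.52 in control replicates 1 to 4. The groups overlapped, and the difference was -0.026 ± 0.18 (SE; limma adjusted p = 0.974), with a 95% interval of -0.43 to 0.38. The other 3 differed by -0.073 ± 0.22 (1451633_a_at), -0.047 ± 0.19 (1425219_x_at) and 0.050 ± 0.20 (1425168_at). The x_at probe set can bind related transcripts. The sign at 1425167_a_at turned under the deposited scaling (0.053), so Gngt1 has no direction here.

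Phosphodiesterase 6 was read at 4 probe sets, and no subunit passed the adjusted threshold. The sign of the difference was negative for Pde6b and Pde6g and positive for Pde6a. The catalytic subunit Pde6b (1419740_at) had 14.25, 13.71, 13.39 and 14.33 in injected replicates 1 to 4, against 14.64, 14.38, 14.58 and 14.64 in control replicates 1 to 4. All 4 injected retinas were below all 4 controls, with replicates 2 and 3 lowest. The difference was -0.64 ± 0.24 (SE; unadjusted p = 0.025; limma adjusted p = 0.709), or 0.642-fold, with a 95% interval of -1.18 to -0.10. Without injected replicate 3 it was -0.46.

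The inhibitory subunit Pde6g gave the smallest p of all members at its dimmer probe set. That probe set (1450453_a_at) had 10.15, 10.41, 9.33 and 10.29 in injected replicates 1 to 4, against 10.99, 10.98, 10.59 and 10.81 in control replicates 1 to 4. The groups did not overlap, and the difference was -0.80 ± 0.26 (SE; unadjusted p = 0.0123; limma adjusted p = 0.628), or 0.576-fold. The brighter probe set (1425100_a_at) had 13.19, 12.84, 12.75 and 13.43 in injected retinas, against 13.73, 13.52, 13.46 and 13.33 in controls. Injected replicate 4 was inside the control range, and the difference was -0.46 ± 0.21 (limma adjusted p = 0.725). The probe sets thus had the same sign, and 2 of the 14 tested member probe sets, those of Pde6b and Pde6g, had all injected below all control values, against 2.6% of all tested probe sets.

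The catalytic subunit Pde6a had the highest difference of the 14 probe sets. It (1450415_at) had 14.13, 14.20, 14.54 and 14.43 in injected replicates 1 to 4, against 14.18, 14.01, 14.01 and 14.26 in control replicates 1 to 4. Replicates 3 and 4 lay above all controls and the groups overlapped. The difference was 0.21 ± 0.18 (SE; limma adjusted p = 0.772), with a 95% interval of -0.19 to 0.61. Centred on array medians it was 0.0092, and with array weights it was 0.100.

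Pde6a and Pde6b encode the partners of 1 enzyme, so their responses were also set side by side within each array. This pairing was chosen after the values were seen and is given with no test. The log2 value of Pde6b minus that of Pde6a, taken from its control mean, was -0.33, -0.94, -1.59 and -0.54 in injected replicates 1 to 4, against 0.012, -0.072, 0.13 and -0.068 in control replicates 1 to 4. The mean shift was -0.85, and the groups did not overlap. For Pde6g minus Pde6a the values were -0.34, -0.75, -1.19 and -0.40 in injected replicates 1 to 4, against 0.16, 0.11, 0.061 and -0.33 in control replicates 1 to 4. The mean shift was -0.67, and the groups nearly touched, at -0.336 for the highest injected and -0.331 for the lowest control array. For Pde6b minus Pde6g the mean shift was -0.18, with overlap. A ratio within an array can reflect unequal change and does not show which gene moved.

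**Figure D2:**
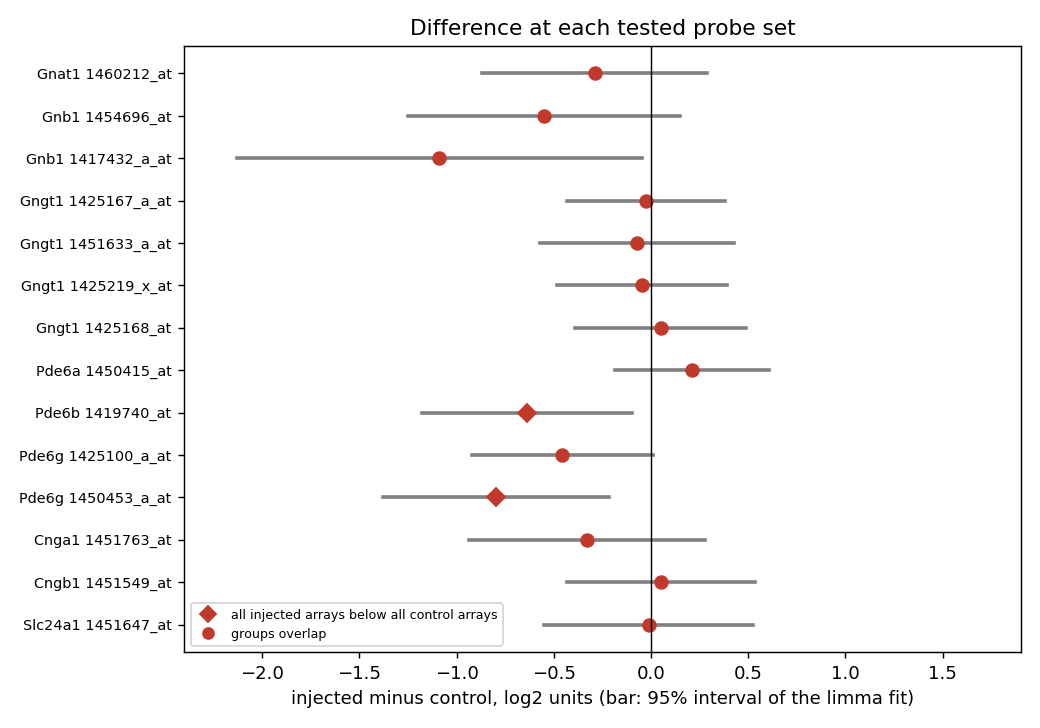
Injected minus control difference in log2 units at each of the 14 tested member probe sets, with the 95% interval of the limma fit as a bar. Diamonds mark the probe sets of Pde6b and Pde6g at which all 4 injected values lie below all 4 control values. The intervals of 3 probe sets exclude 0 before adjustment, and 0 of the 14 passed after it.

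The channel and exchanger genes were read at 1 probe set each. The channel subunit Cnga1 (1451763_at), which binds cyclic GMP, had 14.91, 14.28, 13.61 and 14.48 in injected replicates 1 to 4, against 14.70, 14.63, 14.48 and 14.78 in control replicates 1 to 4. Injected values spread to both sides of the controls, with replicate 3 lowest and replicate 1 highest. The difference was -0.33 ± 0.27 (SE; limma adjusted p = 0.771), and -0.093 without injected replicate 3. Cngb1 (1451549_at), the modulatory subunit, had 10.73, 10.64, 11.37 and 10.52 in injected retinas, against 10.74, 10.81, 10.73 and 10.78 in controls.

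The 4 control values of Cngb1 had an SD of 0.037, the lowest of any member, and injected replicate 3 alone stood above them. The difference was 0.052 ± 0.21 (SE; limma adjusted p = 0.951). Without that replicate it was -0.13, and centred on array medians it was -0.12, so no direction is given. The sodium, calcium and potassium exchanger Slc24a1 (1451647_at) had 13.93, 14.42, 14.64 and 14.77 in injected replicates 1 to 4, against 14.39, 14.08, 14.63 and 14.70 in control replicates 1 to 4. The difference was -0.012 ± 0.24 (limma adjusted p = 0.992), with a 95% interval of -0.55 to 0.53. Both groups of Slc24a1 values were wide, with SDs of 0.37 and 0.28 in injected and control retinas.

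The injected arrays spread more widely than the control arrays over the whole array, with a median SD of 0.423 in injected and 0.258 in control retinas. The injected SD was above the control SD at 72.5% of all tested probe sets and at 13 of the 14 of the members, which share arrays and targets. Taking the brightest probe set per gene, the median of the 9 genes stood at -0.21, -0.37, -0.51 and 0.15 from the control mean in injected replicates 1 to 4. The control arrays stood at 0.075, 0.011, -0.048 and 0.014. In injected replicate 2, 7 of the 9 genes were below the lowest control, as were 5 each in replicates 1 and 3 and 3 in replicate 4. Over all tested probe sets 21.6% to 36.3% per injected array were below the lowest control, the highest share in replicate 3. In injected replicate 4, 4 of the 9 genes were above the highest control, where 25.3% of all tested probe sets were. The lowest gene was Slc24a1 in replicate 1 (-0.52), Pde6b in replicate 2 (-0.85), Gnb1 in replicate 3 (-1.38) and Cngb1 in replicate 4 (-0.24).

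**Figure D3:**
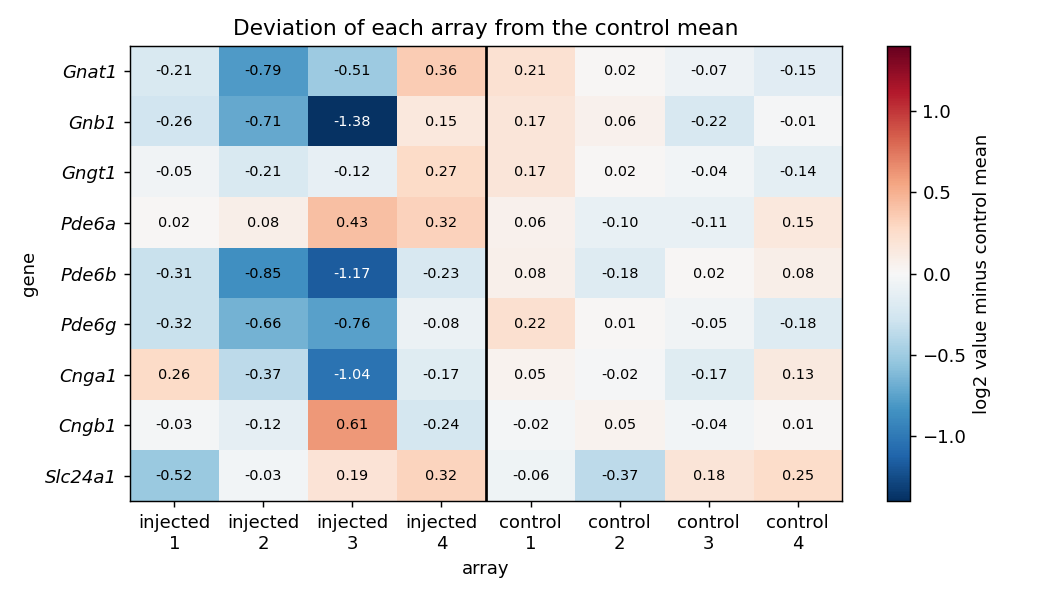
Log2 value of each gene on each array minus the gene's control mean, with injected replicates 1 to 4 left of control replicates 1 to 4. The colour scale runs from blue (below) to red (above). Injected replicates 2 and 3 hold most of the low values, down to -1.38 for Gnb1, while injected replicate 4 holds values up to 0.36 for Gnat1.

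Some measures of RNA quality and of other cells moved with the groups on these arrays. The ratio of signal at the 3′ end of Gapdh to that at its 5′ end, which is higher in degraded RNA, was 5.26 to 8.82 on injected arrays, against 3.36 to 4.68 on control arrays. The groups did not overlap, and injected replicate 3 had the highest ratio. At the brightest probe set per gene, that array had the lowest values of Gnb1, Pde6b, Pde6g and Cnga1. It also had the highest values of Pde6a (0.43 from the control mean) and Cngb1 (0.61). Gnat1 and Gngt1 were lowest in injected replicate 2, and Slc24a1 in injected replicate 1. The ratio of 3′ to 5′ signal for the transferrin receptor was 9.6 to 15.1 on injected and 3.89 to 8.10 on control arrays. That for beta actin overlapped, at 43.3 to 59.7 and 39.2 to 57.2. Gapdh signal at the 3′ end over that of its middle probe set was 4.93 to 8.12 on injected and 5.57 to 5.83 on control arrays. This ratio overlapped for Gapdh, beta actin and the transferrin receptor. Injected replicate 3 also had the lowest array weight (0.191), against 0.646 to 1.83 for the others. The part of RNA quality in the differences was not tested. Without injected replicate 3 the difference was -0.46 for Pde6b, -0.35 and -0.56 for the probe sets of Pde6g, and -0.28 for the brighter probe set of Gnb1.

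Lists of cell markers were chosen with earlier results of these data known. Of 10 rod markers, 8 had a probe set and 7 passed the filter; the list shares Gnat1 with the members. Their summed intensity was 100933 to 184311 on injected and 153668 to 176605 on control arrays. Their mean log2 value overlapped, at -0.46 to 0.45 from the control mean on injected and -0.12 to 0.18 on control arrays. Of the 7 tested rod markers, 6 had negative differences, the lowest -0.87 for Reep6. The 1 positive difference was 0.68 for Samd7, with all injected above all control values. Prph2, below the filter, had a mean of 7.30 in injected and 5.53 in control retinas. Of 8 cone markers, 7 were measured, with a summed intensity of 40421 to 89159 on injected and 90141 to 99373 on control arrays. The 9 markers of microglia, the resident phagocytes, all had a probe set and summed to 69244 to 166804 on injected and 33850 to 56398 on control arrays. As a mean of log2 values from the control mean, they overlapped, at 0.29 to 0.77 on injected and -0.31 to 0.31 on control arrays. The 8 tested microglia markers had positive differences, P2ry12 only 0.0052. Aif1, below the filter, had a mean of 5.87 in injected and 7.05 in control retinas. All 10 lens markers had a probe set, 4 passed the filter, and they summed to 4156 to 79150 on injected and 1764 to 15586 on control arrays. The 10 pigment epithelium markers summed to 33699 to 101925 on injected and 77402 to 277006 on control arrays. By summed intensity, lists of other retinal cells lay lower on the injected arrays without overlap. The 8 Müller glia markers summed to 156708 to 187151 on injected and 187697 to 202553 on control arrays. The 8 amacrine and horizontal cell markers summed to 116073 to 148840 on injected and 149426 to 162823 on control arrays. As a mean of log2 values from the control mean, this list overlapped, at -0.26 to 0.11 on injected and -0.098 to 0.081 on control arrays. Of its 8 tested genes, 5 had negative and 3 positive differences. The ganglion cell markers, 7 of 8 measured, summed to 110348 to 128576 on injected and 134912 to 148834 on control arrays. The bipolar list, 6 of 8 measured, overlapped, at 84092 to 114705 on injected and 101200 to 116831 on control arrays. No probe set of these lists was at 0, and their part in the differences of the rod genes was not tested.

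**Figure D4:**
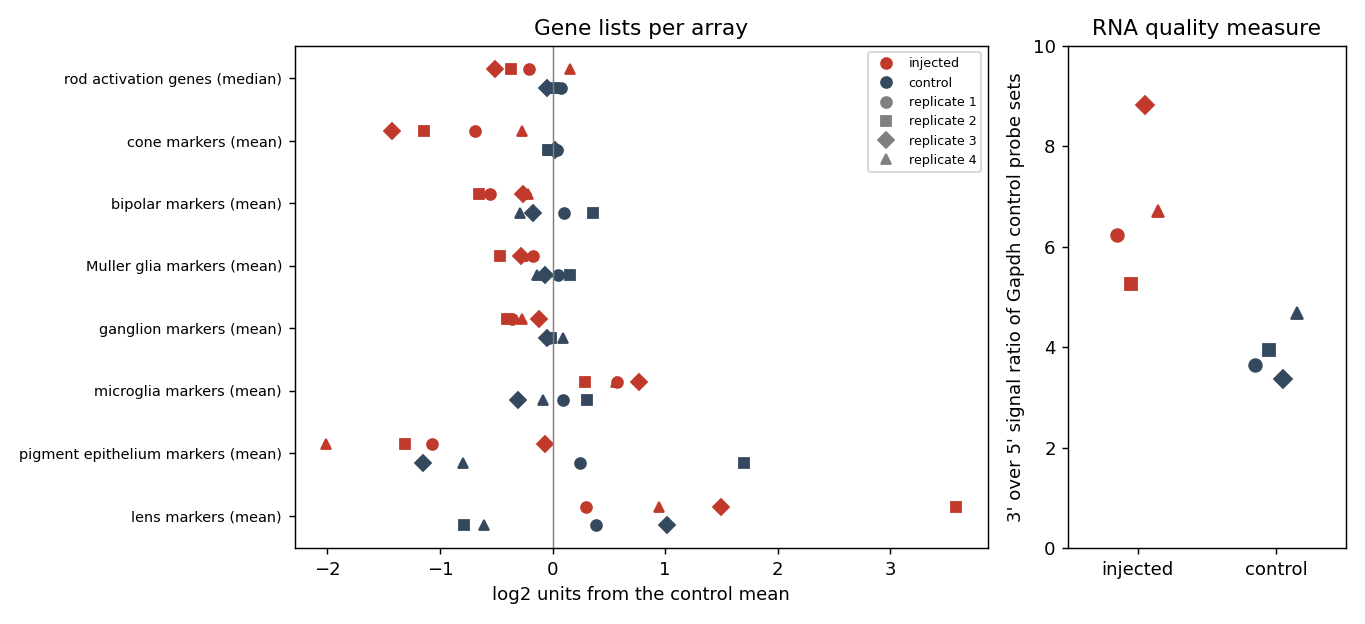
Left, log2 units from the control mean on each array for the 9 rod activation genes (median) and for marker lists of other cells (mean). Injected arrays are drawn above control arrays in each row. The marker lists of rods, amacrine and horizontal cells, blood and endothelium are not drawn. Right, ratio of 3′ to 5′ signal of the Gapdh control probe sets per array. The cone list runs from -1.42 to -0.27 on injected arrays, and the Gapdh ratio is 5.26 to 8.82 on injected against 3.36 to 4.68 on control arrays.

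Cones use their own copies of most of these proteins, so each rod gene was set against its cone counterpart within each array. This tests the difference in response of the paired genes in whole retina, and not of rods against cones as cells. Of 9 planned pairs 8 could be formed; Cnga3 was not analysed here. With exact two-sided permutation tests over 70 assignments, whose smallest p is 0.0286, and adjustment over the 8 pairs, 0 pairs passed and the smallest adjusted p was 0.171. A lone pair could not have passed in this design. Gnat1 minus its cone counterpart Gnat2 was -0.54, -0.52, 0.12 and -0.13 in injected replicates 1 to 4, against -0.71, -0.76, -0.81 and -0.79 in control replicates 1 to 4. All 4 injected arrays were above all controls, and the ratio of rod to cone transducin alpha was higher by 0.50 log2 units (exact permutation p = 0.0286; adjusted p = 0.171). The differences of the genes themselves were -0.29 for Gnat1 and -0.79 for Gnat2. Without injected replicate 3 the shift was 0.37.

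In the other 7 pairs the groups overlapped. Pde6a minus the cone catalytic subunit Pde6c was higher by 0.49 (exact permutation p = 0.0857), and 0.21 without injected replicate 3. Pde6b minus the same Pde6c was lower by 0.36 (difference -0.36; exact permutation p = 0.0571), and Gnb1 minus Gnb3 differed by -0.38 (exact permutation p = 0.0857). Each of the 3 had an adjusted p of 0.171. Read at the other Gnb1 probe set (1417432_a_at), the shift against Gnb3 was -0.92 (exact permutation p = 0.114; adjusted p = 0.229). Gngt1 minus Gngt2 differed by 0.35, Cngb1 minus Cngb3 by 0.29, Slc24a1 minus Slc24a2 by 0.17 and Pde6g minus Pde6h by 0.030, with adjusted p from 0.32 to 0.857. Without injected replicate 3 the shift of Cngb1 against Cngb3 was 0.0052. At their brightest probe sets the inhibitory subunits differed by -0.46 for Pde6g and -0.49 for Pde6h. At the dimmer Pde6g probe set (1450453_a_at), which differed by -0.80, the shift against Pde6h was -0.31.

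**Figure D5:**
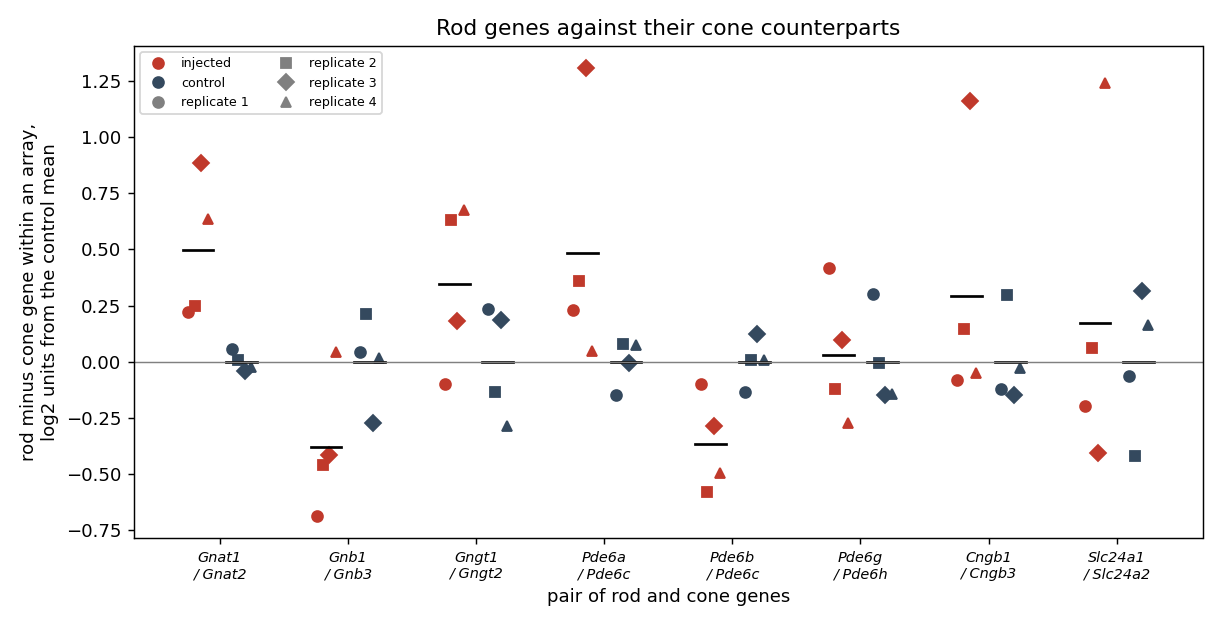
Log2 value of each rod gene minus that of its cone counterpart within an array, in log2 units from the control mean of the pair. Red symbols are injected and dark symbols control arrays, symbol shape gives the replicate, and black lines are group means. The Gnat1 and Gnat2 pair is the one in which all injected arrays lie above all controls, with a mean shift of 0.50.

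Of 5 tested transcription factors of photoreceptors, 4 had negative differences, and Neurod1 differed by 0.044. Nrl had log2 values of 14.52, 13.81, 13.76 and 14.83 in injected replicates 1 to 4, against 14.94, 14.83, 14.47 and 14.89 in control replicates 1 to 4. Injected replicates 2 and 3 were lowest and the groups overlapped, with a difference of -0.56 ± 0.27 (SE; limma adjusted p = 0.725). Crx had 13.61, 13.27, 13.14 and 13.68 in injected retinas, against 13.89, 14.04, 13.84 and 13.74 in controls, without overlap. Its difference was -0.45 ± 0.19 (limma adjusted p = 0.712).

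Nrl was also among the genes whose pattern over the 8 arrays was most like the mean of the members. By Pearson's r over 1 probe set per gene, the 5 nearest tested genes were Ier5 (0.981), Pop5 (0.971), Ndrg3 (0.97), Nrl (0.967) and Slc16a6 (0.963). Spearman's rank correlation ran from 0.833 for Slc16a6 to 0.976 for Pop5. Crx had a Pearson's r of 0.854 and a Spearman's rank correlation of 0.667. These are descriptions over arrays that share their normalization and RNA. The genes were picked as the closest of the 12886 tested genes, with the members left out.

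The other genes of the rod pathway were counted in lists chosen with earlier results known. In the 8 lists other than the members, that of cone counterparts included, 0 genes passed the adjusted threshold. Counts below use an unadjusted p under 0.05 at 1 probe set per gene, by which 2.91% of all tested genes were lower and 3.77% higher. Of the members 1 of 9, Pde6b, was lower by that rule, and it alone had all injected below all control values, against 2.65% of all tested genes. In the shut-off and calcium feedback list, 4 of 9 tested genes were lower and 0 higher, with a median difference of -0.30. They included the guanylate cyclase activators Guca1a (-1.14 ± 0.33, SE) and Guca1b (-0.80 ± 0.30) and Rgs9bp, the anchor of the transducin-inactivating complex (-0.68 ± 0.27). The other was the photoreceptor kinase Grk1, with a mean of 7.79 in injected and 9.89 in control retinas. Grk1 passed the floor of 8.50 only through its control values, so its difference was favoured by the filter, and 3 of 8 were lower without it.

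Among 5 tested genes of the light capture and transcription factor list, 1 was lower, Crx, and the median difference was -0.30. Otx2, a homeodomain factor, differed by -0.28 ± 0.24 (SE) and Rorb, an orphan nuclear receptor, by -0.30 ± 0.25. Of 9 tested genes for folding and transport of the cascade proteins, 0 were lower and 0 higher by the same rule, with a median of -0.033. Unc119, which carries transducin alpha, differed by -0.64 ± 0.35 (SE), and Tulp1, which is needed for protein transport to the outer segment, by -0.52 ± 0.34. Rd3, a regulator of guanylate cyclase, differed by 0.32 ± 0.28, and in all 5 genes of this list had negative and 4 positive differences. Of 8 tested outer segment genes 1 was lower, the disc protein Prcd at -0.48 ± 0.19 (SE), and the median was -0.14. The cadherin Pcdh15 differed by 0.34 ± 0.20, with 3 of 4 injected values above all controls. The disc rim protein Rom1 differed by -0.40 ± 0.29 and the photoreceptor cadherin Cdhr1 by -0.42 ± 0.32.

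All 10 tested cone counterparts had negative differences, with a median of -0.43. By the unadjusted rule 4 were lower, namely Opn1mw, Opn1sw, Arr3 and Gnat2. Other genes of the same protein families were counted as well. Of 11 tested other G protein subunits 8 had negative differences, against 7 of 9 members and 51.5% of all tested genes. Their median was -0.31, against -0.29 for the members. By the unadjusted rule 1 was lower, Gng2 at -0.65 ± 0.19 (SE). Of 13 tested other phosphodiesterases 6 had negative and 7 positive differences, with a median of 0.010, and by that rule 0 were lower and 0 higher. For ion transport of the inner segment, 1 of 5 tested genes was lower, the calcium channel subunit Cacna1f at -0.80 ± 0.26 (SE), and the sodium pump subunit Atp1b2 differed by 0.76 ± 0.49.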

How the data were processed

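Total RNA of mouse retina had been hybridised to Affymetrix arrays, 1 array for each of 8 samples. The authors deposited linear intensities, 1 per probe set. Their mean on each array, leaving out the extreme 2% on either side, is 2500.01 or 2500.02, so the arrays had been brought to 1 common mean. Which program did this is not given in the sources used here. A difference in total RNA would not be visible after it.

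The highest array median was still 1.55 times the lowest. The intensities were therefore quantile-normalised with limma 3.58.1 under R 4.3.3, and log2(intensity + 16) was taken. Fold changes on that scale understate those of dim genes. The 64 probe sets that control the array served for quality ratios alone. Probe sets at or above the 40th percentile of mean log2 value (8.50) were tested, which left 27022, of which 14 of the 15 member probe sets. Injected was compared with control by lmFit and eBayes at an adjusted p of 0.05 (Benjamini-Hochberg). Rod and cone genes were compared by exact permutation. Symbols come from the platform annotation, where 34945 probe sets have 1 symbol, 932 several and 9160 none. Entrez identifiers gave the same symbols in RefSeq. No build is named for the probe sets, so they have no coordinates here.

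The members, lists and tests were chosen with earlier results of these data known. Named were all members at every probe set, all cone counterparts, up to 4 genes per list by smallest p (the text gives some of them), Nrl and Crx, and the 5 genes most like the members. Promoter windows are the bases before the start in the RefSeq table of GRCm38.p6. The fit was tested on simulated data with the same SD in both groups, so the wider spread of the injected arrays was not covered. The alternatives were other scalings, pseudocounts of 1 and 64, no filter, a prior with trend and robust settings, weights per array (statmod 1.5.0), the replicate number as a block, reducing genes to 1 probe set, a fit without moderation, and omission of each array. The number of arrays limits the precision. Figures used matplotlib 3.10.9 in Python 3.11.15.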

Additional observations from a re-analysis of the deposited data

Results flagged for a closer look

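At 1 probe set of Gngt1 (1425219_x_at), the transducin gamma subunit, injected replicate 3 had a log2 value of 14.02, far below the other 3 injected values of 14.52, 14.60 and 14.59. Its gap to the nearest of them was 0.85 of the group's range, above Dixon's 95% critical value for 4 samples. It was the only such value in 28 groups of 4 examined, and chance flags about 5% of groups. The same array had the highest Gapdh ratio of 3′ to 5′ signal (8.82), and the part of RNA quality in this value was not tested.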

How the results depend on the processing

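No member probe set passed the adjusted threshold under any of the settings tried, and 0 pairs of rod and cone genes passed. For the pairs this says nothing about stability, since the smallest exact permutation p of 0.0286 cannot pass for a lone pair adjusted over 8, and fewer arrays allow no smaller p. Over the whole array 7 probe sets were higher and 1 lower with array weights, and leaving out 1 array gave 0 to 29 higher and 0 to 5 lower, the most without injected replicate 4. The median difference of the members was -0.50 when centred on array medians, where all tested probe sets had a median of -0.15, and -0.38 to -0.12 when 1 array was left out. The number of member probe sets lower at an unadjusted p under 0.05 was 1 to 6 when 1 array was left out, the most without injected replicate 4. Differences near 0 changed sign. Gngt1 (1425167_a_at) was at 0.053 under the deposited scaling and at -0.13 to 0.035 with 1 array left out, with 0.035, 0.0043 and 0.029 without injected replicate 2, injected replicate 3 and control replicate 1. Gngt1 (1425168_at) was at -0.14 centred on medians and -0.082 to 0.13 with 1 array left out. With array weights 1425219_x_at was at 0.032 and 1451633_a_at at 0.070, and with 1 array left out they ran from -0.10 to 0.091 (0.0023 without control replicate 1) and from -0.21 to 0.098. Cngb1 was at -0.12 centred on medians, -0.062 with array weights and -0.13 to 0.15 with 1 array left out. Slc24a1 ran from -0.13 to 0.16 with 1 array left out, with 0.047 and 0.072 without control replicates 3 and 4. Without injected replicate 3 and control replicate 2 together, a setting chosen after seeing the data, the 4 probe sets of Gngt1 (1425167_a_at, 1425168_at, 1425219_x_at and 1451633_a_at) were at 0.011, -0.098, 0.049 and 0.096 and Cngb1 at -0.12. The shift of Pde6g against Pde6h was -0.0069 under the deposited scaling and centred on medians, -0.31 at the other Pde6g probe set (1450453_a_at) and -0.099 to 0.13 with 1 array left out (-0.020 and -0.018 without control replicates 3 and 4). The shift of Slc24a1 against Slc24a2 ran from -0.18 to 0.37 with 1 array left out. The causes were not tested. Whether the replicate numbers pair the arrays is not stated. Correlations of the deviations of same-numbered arrays ran from -0.029 to 0.084, and those of other numbers reached 0.119. Such low values cannot decide whether arrays were paired. The replicate block gave 0 calls and the same member differences, such as -0.64 for Pde6b.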
